A study of Mus musculus with 8 samples.

Results

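The enzymes described here handle carbonyl and ester groups: the aldehyde dehydrogenases (Aldh), aldo-keto reductases (Akr), carboxylesterases (Ces), alcohol dehydrogenases (Adh) and carbonyl reductases (Cbr). They were chosen by gene symbol, as every gene of these 5 names with a named probe on the array, without the retinaldehyde dehydrogenases Aldh1a1, Aldh1a2 and Aldh1a3. This gave 61 genes, of which 45 were measured, that is, had a probe well above background on 4 or more of the 8 arrays. The 45 genes were 17 of 18 Aldh, 11 of 16 Akr, 9 of 18 Ces, 4 of 5 Adh and 4 of 4 Cbr genes, among 25404 features measured in all. Each gene is read by its brightest such probe, so brightness and detection chose the values and are described without a test.

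RNA came from intestinal stem cells of mice sorted for high signal of an Lgr5 reporter, 4 samples labelled control and 4 labelled Irf2_AhcKO. All 8 samples carried Irf2fl/fl, a floxed gene of the interferon-responsive transcription factor IRF2, and the allele Lgr5-EGFP-Ires-CreERT2, and all were taken 1 month after β-naphthoflavone, which the series text gives as 5 consecutive days of treatment. The Irf2_AhcKO samples carried AhCre in addition, a recombinase under a promoter that such xenobiotics switch on and that is not limited to stem cells. The animals' age is not stated in the labels. For control replicates 3 and 4 the scanner output is also named for AhCre, so the genotype of these controls is unsettled. The 1 probe of Irf2 itself was not lower in Irf2_AhcKO (log2 difference 0.27, limma adjusted p = 0.429), and since no source used here places that probe inside or outside the deleted part, it does not check the labels. Directions are therefore between the arrays labelled Irf2_AhcKO and those labelled control.

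Values are log2 signals minus the array's 75th percentile, and a difference is Irf2_AhcKO minus control with the slide as a term. A gene is called where limma's Benjamini-Hochberg adjusted p over all 25404 features is below 0.05. The arrays lay on 2 slides that differed in scan time, each with 2 arrays of either group, and 35.5% of the features and 12 of the 45 enzymes differed between slides. Between 61.4% and 69.8% of the spots of an array were well above background, and the number of arrays, not a read depth, limits the precision. The stem cell markers Lgr5 and Ascl2 were well above background on all 8 arrays. Their differences were -0.29 and -0.46 (limma adjusted p = 0.502 and 0.433). Replicates are separate samples by the labels, and whether each was 1 mouse is not clear from the series text, so the p values cover only the spread among these samples, which may be technical. In sorted bulk samples, fewer cells of a type and less RNA per cell cannot be told apart.

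Aldehydes and ketones arise when alcohols, lipids, steroids and retinoids are turned over. Aldehyde dehydrogenases oxidise aldehydes to acids, aldo-keto and carbonyl reductases reduce them to alcohols, and alcohol dehydrogenases interconvert alcohols and aldehydes. Carboxylesterases cut esters and amides of drugs, acylglycerols and retinyl esters, and those of the Ces2 group are typical of the small intestine.

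The promoters of the enzymes on which the results turn are shown first: the Akr1c genes, which include the called gene Akr1c14, and 2 of the Ces2 genes. They are the 250 bases before the gene start from RefSeq on GRCm38.p6, 5′ to 3′ on the gene's strand, where promoters of 51 of the 61 genes were found by symbol. Capitals mark a match, on either strand, to the core of an interferon response element, spelled here as GAAA, 2 bases of any kind and GAAA.
Akr1c14: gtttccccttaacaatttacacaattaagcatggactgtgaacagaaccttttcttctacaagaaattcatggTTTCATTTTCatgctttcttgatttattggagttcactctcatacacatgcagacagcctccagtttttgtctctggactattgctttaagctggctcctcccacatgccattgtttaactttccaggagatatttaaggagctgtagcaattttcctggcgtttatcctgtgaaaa
Akr1c19: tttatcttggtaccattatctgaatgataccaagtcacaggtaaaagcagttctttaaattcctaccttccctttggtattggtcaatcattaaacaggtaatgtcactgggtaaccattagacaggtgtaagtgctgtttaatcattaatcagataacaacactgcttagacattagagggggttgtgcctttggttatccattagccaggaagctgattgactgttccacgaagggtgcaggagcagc
Akr1c12: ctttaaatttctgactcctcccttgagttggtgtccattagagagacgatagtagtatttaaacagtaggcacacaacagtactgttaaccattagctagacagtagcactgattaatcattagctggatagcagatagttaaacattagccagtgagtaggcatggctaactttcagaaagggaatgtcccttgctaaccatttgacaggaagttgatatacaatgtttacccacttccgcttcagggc
Akr1c13: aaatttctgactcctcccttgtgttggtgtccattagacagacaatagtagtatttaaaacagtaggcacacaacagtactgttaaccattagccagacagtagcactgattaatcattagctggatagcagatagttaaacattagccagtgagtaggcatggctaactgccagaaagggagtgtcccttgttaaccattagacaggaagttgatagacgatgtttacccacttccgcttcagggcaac
Ces2a: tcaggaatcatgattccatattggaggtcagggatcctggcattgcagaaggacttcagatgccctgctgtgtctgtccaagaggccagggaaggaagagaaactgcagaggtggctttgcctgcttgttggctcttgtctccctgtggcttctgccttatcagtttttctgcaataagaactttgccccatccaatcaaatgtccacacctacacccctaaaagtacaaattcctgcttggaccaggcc
Ces2c: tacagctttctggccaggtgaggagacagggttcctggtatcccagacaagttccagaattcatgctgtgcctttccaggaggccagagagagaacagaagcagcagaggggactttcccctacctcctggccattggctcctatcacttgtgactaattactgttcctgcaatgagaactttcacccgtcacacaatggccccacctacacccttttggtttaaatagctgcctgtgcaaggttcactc
In the same order, they lie at chr13:4059341-4059590 (+ strand), chr13:4233490-4233739 (+ strand), chr13:4279400-4279649 (- strand), chr13:4190937-4191186 (+ strand), chr8:104733753-104734002 (+ strand) and chr8:104846818-104847067 (+ strand).

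The promoters of Akr1c12 and Akr1c13 were identical at 92.5% of their aligned positions, while that of Akr1c14 matched the other 3 Akr1c promoters at 48.5% to 51.6%. The promoters of Ces2a and Ces2c were identical at 67.0%. Gaps counted as positions, and unrelated promoters were not aligned, so the share that unrelated sequences reach is not known here. The interferon response core was found in 2.98% of all 32851 promoters and in those of 2 of the 51 enzymes, Akr1c14, starting 177 bases before the gene, and Adh6a, starting 49 bases before it, both on the opposite strand. TGACNNNGC, the core of the antioxidant response element bound by NRF2, with N for any base, was in 10.2% of all promoters and in those of 3 enzymes (Adh6a, Aldh9a1 and Akr1cl). GCGTG, the core bound by the aryl hydrocarbon receptor, was in 28.2% and in those of 7 enzymes (Aldh3a2, Aldh3b3, Aldh4a1, Aldh9a1, Aldh18a1, Akr1b8 and Cbr1). The latter 2 motifs were in none of the promoters shown, and matches to different motifs did not overlap in any of these enzymes. The shares over all promoters are counted per promoter, while an enzyme counts once if any of its promoters holds a match. The 51 enzymes had 54 promoters. A match describes letters only.

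Of the 45 measured enzymes, 1 was called, where 0.0984% of all features were called in either direction. The called gene was Akr1c14, which fell. Of all features, 14 (0.0551%) were called higher and 11 (0.0433%) lower, or 9 and 11 with arrays centred on their median. The groups did not overlap in 9 enzymes, 8 of them lower and 1 higher in Irf2_AhcKO, where this held for 3.85% of all features, 2.11% lower and 1.74% higher. Taking each slide alone, the groups were separate on both slides in 14 enzymes with Irf2_AhcKO lower (7.1% of all features) and 3 with it higher (5.74%). A difference over 2-fold was seen in 4 enzymes (Aldh1a7, Akr1c14, Ces2a and Ces1g) and in 1.22% of all features. Unadjusted p was below 0.05 for 21 of the 45, 17 with negative and 4 with positive differences, beside 11.7% of all features (5.75% negative and 5.98% positive). The median difference of the 45 was -0.18 (slide 1 alone -0.19, slide 2 alone -0.16), with -0.002 over all features and -0.02 over the 15114 named genes. Negative differences were found for 31 of the 45 (68.9%) and for 55.3% of named genes. These counts describe the 45 genes and are no test, since the enzymes were picked out with results of the same arrays known and 6 of the 45 were not well above background on every array.

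**Figure D1:**
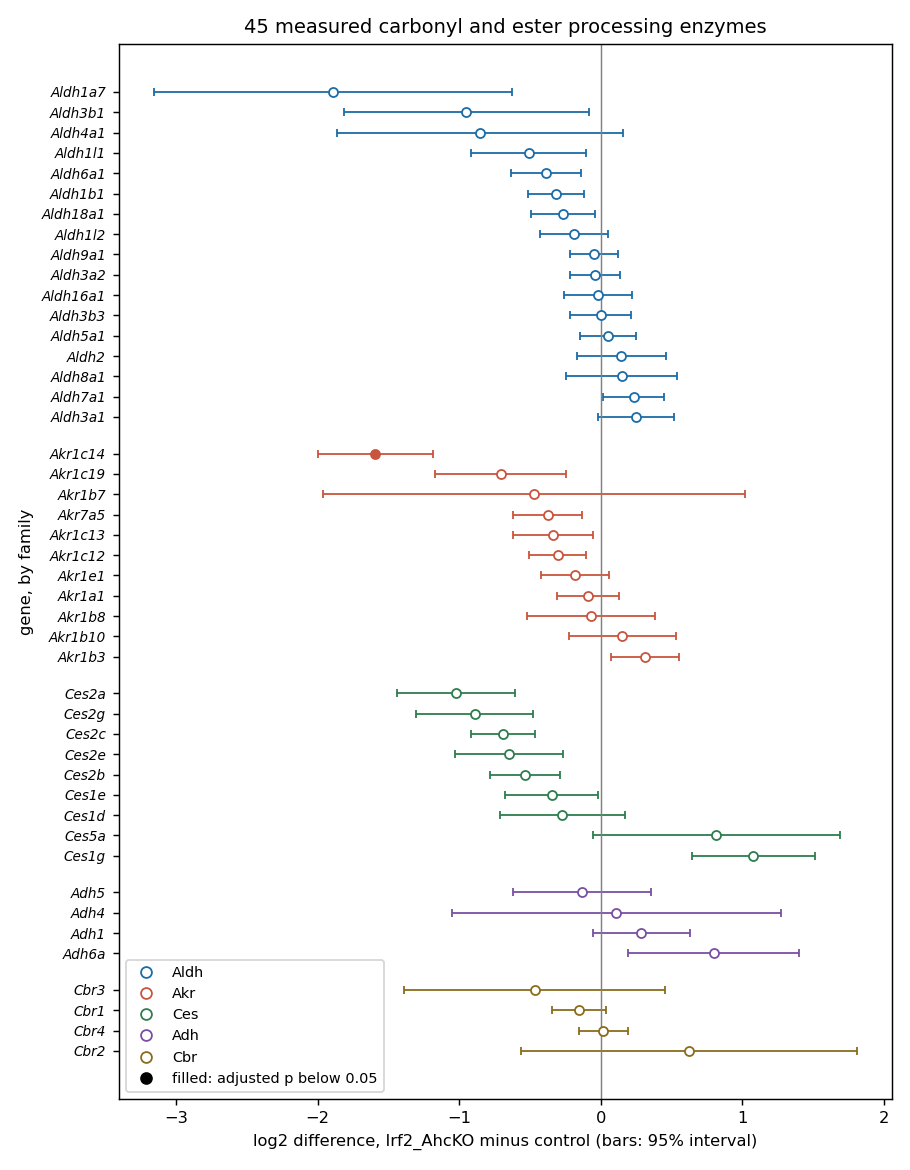
Log2 difference (x axis, Irf2_AhcKO minus control, with its 95% interval) of each of the 45 measured enzymes, grouped by family (y axis). The only filled point is Akr1c14 at -1.59, and the 5 Ces2 genes lie between -1.02 and -0.54.

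Among the aldo-keto reductases, Akr1c14, a 3-alpha-hydroxysteroid dehydrogenase, was the called gene. It read -1.01, -0.74, -1.06 and -0.66 on control replicates 1 to 4 and -2.29, -2.36, -2.27 and -2.92 on Irf2_AhcKO replicates 1 to 4. Every Irf2_AhcKO array lay below every control array, by more than the spread within either group, and all 8 were well above background. The means were -0.87 ± 0.20 (SD, n = 4) for the controls and -2.46 ± 0.31 (SD, n = 4) for Irf2_AhcKO, and the gene fell by 1.59 on the log2 scale (95% interval -2.0 to -1.18, SE 0.17, limma adjusted p = 0.0426), which is 3.02-fold, with slide 1 alone giving -1.45 and slide 2 alone -1.73. The call ended with the replicate number as a block (difference -1.59, limma adjusted p = 0.168), in each slide alone, without a filter on dim probes, and when any 1 of the 8 arrays was left out (adjusted p from 0.0839 to 0.171, differences from -1.70 to -1.43). With normexp, which adds an offset of 50 and so shrinks differences of dim probes, the difference was -0.86 and the call held (adjusted p = 0.00665).

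The other 3 measured Akr1c genes had negative differences and were not called. Akr1c19 read -0.88, -1.23, -1.19 and -1.31 on control replicates 1 to 4 and -1.56, -2.20, -1.54 and -2.16 on Irf2_AhcKO replicates 1 to 4. Its groups did not overlap, and the difference was -0.71 (limma adjusted p = 0.292, SE 0.20), or -0.39 with normexp. Akr1c12 read 4.45, 4.29, 4.39 and 4.33 on control replicates 1 to 4 and 4.19, 4.07, 4.09 and 3.91 on Irf2_AhcKO replicates 1 to 4. Again all Irf2_AhcKO arrays lay below all controls, though by little, with a difference of -0.31 (limma adjusted p = 0.292, SE 0.08). Akr1c13 read 3.57, 3.32, 3.80 and 3.67 on control replicates 1 to 4 and 3.39, 3.08, 3.38 and 3.16 on Irf2_AhcKO replicates 1 to 4, with overlapping groups and a difference of -0.34 (limma adjusted p = 0.37, SE 0.12), slide 1 alone giving -0.21 and slide 2 alone -0.46. Because Akr1c12 and Akr1c13 are near-copies, their values may not be separate measurements, and how far their probes read each other's RNA was not tested. The median of the 4 Akr1c genes was -0.52, at -0.53 on slide 1 and -0.53 on slide 2. All 4 stayed negative under each of the 21 alternatives run. Several of these, such as the authors' table and the fit without a slide term, could not change the differences.

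The 4 Akr1c genes are part of 1 run of 9 neighbouring genes on chromosome 13, in the order Akr1c14, Akr1c18, Akr1c13, Akr1c19, Akr1c12, Akr1c6, Akr1c20, Akr1c21 and Akr1e1. Of these, Akr1c18 (a 20-alpha-hydroxysteroid dehydrogenase), Akr1c6 and Akr1c21 did not reach 4 arrays, and Akr1c20 had no named probe. Akr1e1, which reduces anhydrofructose, lay at the other end with a difference of -0.18 (limma adjusted p = 0.499, SE 0.10). Within the run, the fitted difference was largest at its Akr1c14 end.

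**Figure D2:**
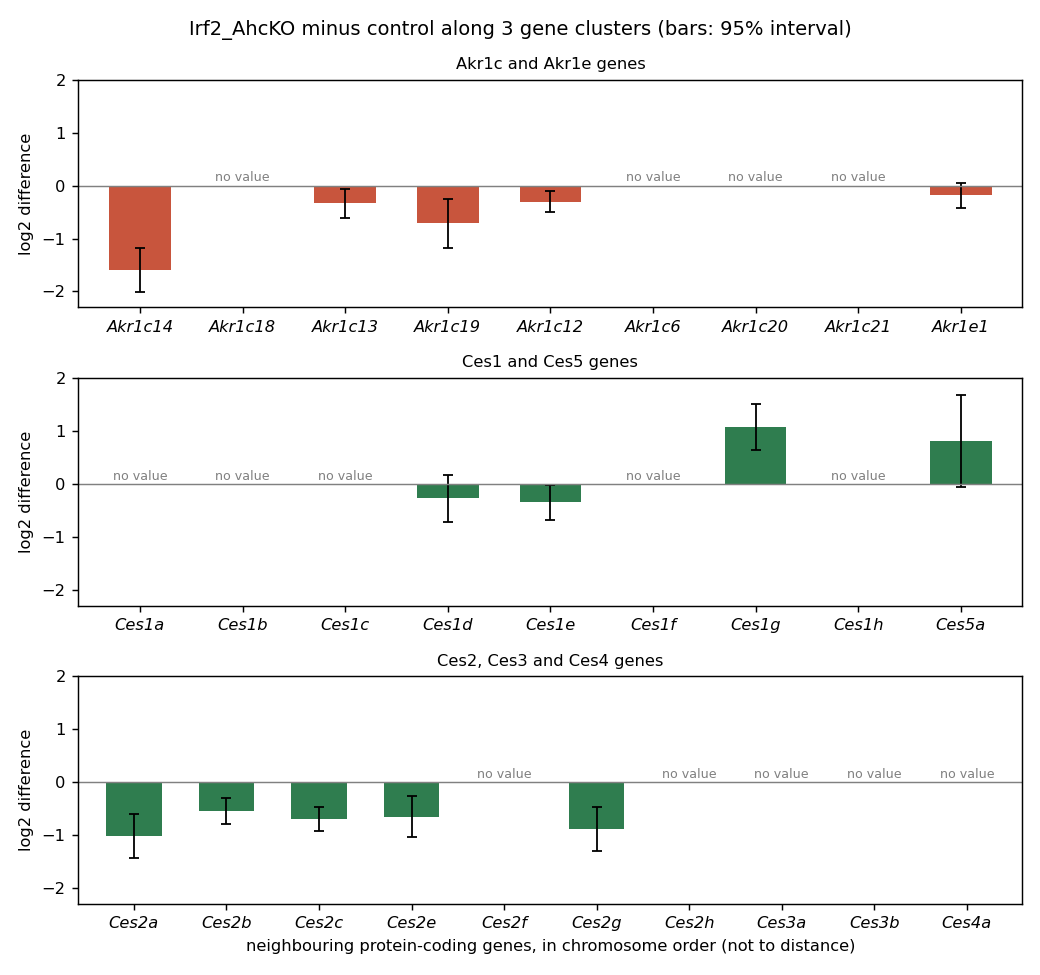
Log2 difference (y axis, Irf2_AhcKO minus control, with its 95% interval) of neighbouring genes in chromosome order (x axis, not to distance) in 3 gene clusters. All 5 measured genes of the Akr1c run and all 5 measured Ces2 genes lie below 0, while Ces1g and Ces5a lie above 0 in a run whose measured neighbours Ces1d and Ces1e lie below it.

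Aldo-keto reductases outside the Akr1c group showed no common direction. Akr7a5, which reduces succinic semialdehyde and aflatoxin dialdehyde, had a difference of -0.37 (limma adjusted p = 0.292, SE 0.10), with Irf2_AhcKO below control within both slides and overlap across slides. Akr1b3, the aldose reductase of the polyol pathway, had 0.31 (limma adjusted p = 0.345, SE 0.10), and its second kept probe gave 0.27. For Akr1b3, the Irf2_AhcKO arrays were the higher ones on each slide. Of its neighbours Akr1b8, Akr1b10 and Akr1b7 the differences were -0.07, 0.15 and -0.47, with wide overlap, and Akr1b7 ranged from -4.90 to -1.80 among Irf2_AhcKO arrays alone. The broad aldehyde reductase Akr1a1 differed by -0.09 (95% interval -0.31 to 0.13).

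The carboxylesterases of the Ces2 group shared 1 direction, although none was called. All 5 measured genes had negative differences, from -1.02 to -0.54, and in all 5 the Irf2_AhcKO arrays lay below the controls on each slide taken alone, beside the 7.1% of all features given above. Their median was -0.69, with -0.77 on slide 1 and -0.82 on slide 2. Averaged over the 5 genes, controls read 1.16 to 1.60 and Irf2_AhcKO arrays 0.62 to 0.93, so the groups did not overlap. Control replicate 3 was the lowest control, at 1.16.

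Ces2a read 1.51, 1.57, 1.03 and 1.59 on control replicates 1 to 4 and 0.67, 0.08, 0.51 and 0.34 on Irf2_AhcKO replicates 1 to 4. The groups did not overlap, and the difference was -1.02 (limma adjusted p = 0.126, SE 0.18), 2.03-fold, with slide 1 alone giving -1.16 and slide 2 alone -0.88. Ces2c, which like other Ces2 enzymes hydrolyses acylglycerols, read 1.83, 1.94, 1.24 and 1.45 on control replicates 1 to 4 and 1.24, 0.98, 0.76 and 0.70 on Irf2_AhcKO replicates 1 to 4. Its groups touched, since control replicate 3 on slide 2 and Irf2_AhcKO replicate 1 on slide 1 were almost equal, and the difference was -0.69 (limma adjusted p = 0.0777, SE 0.10), with slide 1 alone giving -0.77 and slide 2 alone -0.62. The other 2 kept probes of Ces2c gave -0.49 and -0.51. Ces2g read 1.07, 0.95, 0.10 and 0.82 on control replicates 1 to 4 and 0.18, 0.20, -0.74 and -0.27 on Irf2_AhcKO replicates 1 to 4, with overlap through control replicate 3 and a difference of -0.89 (limma adjusted p = 0.166, SE 0.18).

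Ces2b read 1.85, 2.14, 1.43 and 1.50 on control replicates 1 to 4 and 1.34, 1.39, 1.17 and 0.89 on Irf2_AhcKO replicates 1 to 4. No Irf2_AhcKO array reached a control, and the difference was -0.54 (limma adjusted p = 0.162, SE 0.11). Ces2e read 1.74, 1.32, 2.01 and 2.47 on control replicates 1 to 4 and 1.23, 0.87, 1.38 and 1.47 on Irf2_AhcKO replicates 1 to 4, and its difference was -0.65 (limma adjusted p = 0.258, SE 0.16). Slide 2 minus slide 1 was 0.54 in Ces2e (limma adjusted p = 0.0377) and -0.43 in Ces2b (adjusted p = 0.0181), so the 2 genes differed in direction between slides but not between groups. With normexp, Ces2a, Ces2c and Ces2g were called as well (-0.86, -0.58 and -0.71, adjusted p = 0.0374, 0.0128 and 0.0394). Ces2c was also called among features well above background on all 8 arrays (adjusted p = 0.0488). The Ces2 genes are close relatives lying side by side, and how far their probes read each other's RNA was not tested.

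**Figure D3:**
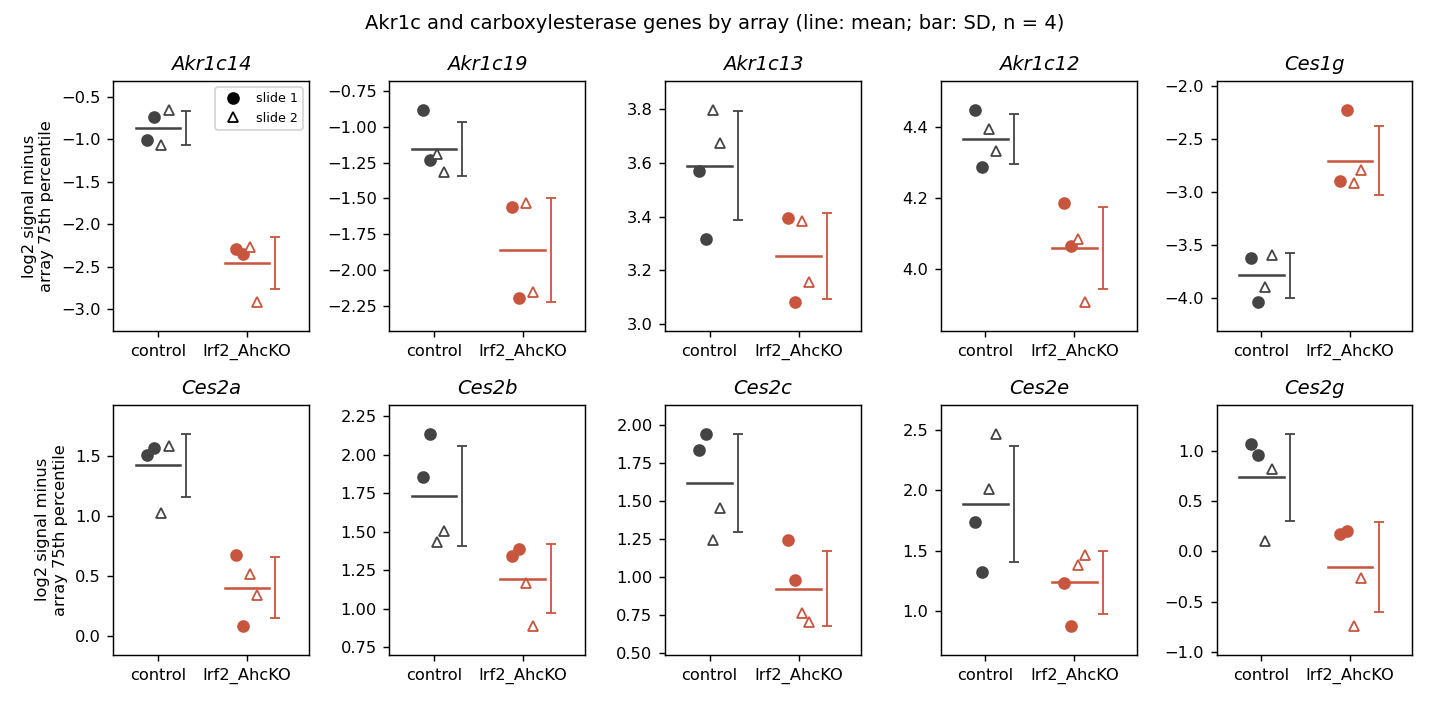
Log2 signal after subtracting each array's 75th percentile (y axis) of 10 Akr1c and carboxylesterase genes in control and Irf2_AhcKO arrays (x axis), with slide 1 as filled circles and slide 2 as open triangles, the mean as a line and the SD (n = 4) as a bar. Akr1c14, Akr1c19, Akr1c12, Ces2a and Ces2b are lower in all Irf2_AhcKO arrays, and Ces1g is higher in all of them.

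The Ces1 genes, in a run of 9 next to each other on chromosome 8 with Ces5a, had differences in both directions. Ces1g, which hydrolyses acylglycerols and cholesteryl esters in liver and intestine, read -3.62, -4.04, -3.89 and -3.60 on control replicates 1 to 4 and -2.90, -2.23, -2.92 and -2.79 on Irf2_AhcKO replicates 1 to 4. It was the 1 enzyme of the 45 whose groups did not overlap with Irf2_AhcKO higher, though it was not called, with a difference of 1.08 (limma adjusted p = 0.126, SE 0.19) and slide 1 alone giving 1.27 and slide 2 alone 0.89. Its signal was dim in both groups but well above background on all 8 arrays, and with normexp the difference was 0.36. Ces1d, a triacylglycerol hydrolase, and Ces1e had differences of -0.27 and -0.35, and Ces1e stood at -0.08 on slide 1 and -0.62 on slide 2. Ces5a, at 0.82 (limma adjusted p = 0.447, SE 0.37), was well above background on 2 control and 3 Irf2_AhcKO arrays.

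Of the 9 carboxylesterase genes that were not measured, Ces1a was well above background on 2 control arrays and Ces1b and Ces2h on 2 Irf2_AhcKO arrays each. Ces2f reached 1 array of each group, Ces1c 1 control array, and Ces1f, Ces3a, Ces3b and Ces4a none. No enzyme was detected on exactly 3 arrays. Just inside the limit stood Cbr2 with 4 arrays and Ces5a with 5, and just outside it Ces1a, Ces1b, Ces2f and Ces2h with 2. The other genes left out were Adh7, Akr1c21, Akr1cl and Akr1d1 with no array and Akr1c18, Akr1c6 and Aldh3b2 with 1.

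The aldehyde dehydrogenases had a median of -0.05 over 17 genes, 12 of them with negative differences. None was called (7 had an unadjusted limma p below 0.05, 6 of them lower). All 4 measured genes of the Aldh1 group (Aldh1a7, Aldh1b1, Aldh1l1 and Aldh1l2) had negative differences. Their median was -0.41, with -0.42 on slide 1 and -0.46 on slide 2. Aldh1a7, a close relative and chromosome neighbour of Aldh1a1, read -1.75, -2.22, -2.57 and -2.41 on control replicates 1 to 4 and -3.67, -5.84, -3.39 and -3.63 on Irf2_AhcKO replicates 1 to 4. The groups did not overlap, but Irf2_AhcKO replicate 2 lay far below the other 3 and was not well above background, and the difference was -1.89 (limma adjusted p = 0.298, SE 0.54), with slide 1 alone giving -2.77 and slide 2 alone -1.02. It was -1.28 without that array and -0.55 with normexp. Aldh1a1 itself, which the choice of enzymes leaves out, was lower at -1.79 (limma adjusted p = 0.0310), and whether the probe of Aldh1a7 reads its RNA was not tested.

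Aldh1b1, a mitochondrial enzyme for acetaldehyde and retinaldehyde, read 4.54, 4.47, 4.50 and 4.39 on control replicates 1 to 4 and 4.22, 4.01, 4.19 and 4.23 on Irf2_AhcKO replicates 1 to 4. The arrays of each group were close together and did not overlap, for a small difference of -0.31 (limma adjusted p = 0.285, SE 0.08). Aldh6a1, the methylmalonate semialdehyde dehydrogenase of valine breakdown, read 1.56, 1.68, 1.53 and 1.60 on control replicates 1 to 4 and 1.19, 1.46, 1.23 and 0.94 on Irf2_AhcKO replicates 1 to 4. It too did not overlap, at -0.39 (limma adjusted p = 0.29, SE 0.11), and its second kept probe gave -0.35. The cytosolic folate enzyme Aldh1l1 stood at -0.51 (limma adjusted p = 0.359, SE 0.17) and its mitochondrial relative Aldh1l2 at -0.19, both with overlap.

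Enzymes at the 2 ends of proline turnover had differences of -0.27 (limma adjusted p = 0.375, SE 0.10) for Aldh18a1, which starts its synthesis, and -0.85 (limma adjusted p = 0.471, SE 0.43) for Aldh4a1, which completes its breakdown. The value of Aldh4a1 rested on slide 1 (-1.81, against 0.11 on slide 2), and 2 of 4 Irf2_AhcKO arrays were well above background. Aldh3b1, which acts on lipid aldehydes, stood at -0.95 (limma adjusted p = 0.398, SE 0.37), and at -0.60 without control replicate 2, its brightest array, and -0.38 with normexp. Aldh3a1, which the aryl hydrocarbon receptor induces, had 0.25 (limma adjusted p = 0.448, SE 0.11), and Aldh7a1 of lysine breakdown 0.23 (limma adjusted p = 0.409, SE 0.09).

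The remaining 7 aldehyde dehydrogenases had differences between -0.05 and 0.15. Among them, Aldh2, the main mitochondrial acetaldehyde dehydrogenase, stood at 0.15 (95% interval -0.17 to 0.46) and the fatty aldehyde dehydrogenase Aldh3a2 at -0.04 (-0.22 to 0.14). Aldh5a1, the succinic semialdehyde dehydrogenase, stood at 0.05 (-0.15 to 0.25), and Aldh9a1 of carnitine synthesis at -0.05 (-0.21 to 0.12). The intervals of all 7 lay within a 2-fold change in either direction.

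The alcohol dehydrogenases, a run of 6 neighbours on chromosome 3, gave no call (1 of 4 measured genes had an unadjusted limma p below 0.05). Adh6a read -0.96, -0.53, -0.73 and -0.004 on control replicates 1 to 4 and 0.56, -0.47, 0.51 and 0.38 on Irf2_AhcKO replicates 1 to 4. On each slide both Irf2_AhcKO arrays were above both controls, while across slides Irf2_AhcKO replicate 2 overlapped the controls, and the difference was 0.80 (limma adjusted p = 0.34, SE 0.26). Adh1, the classical ethanol and retinol dehydrogenase, read 4.25, 4.47, 4.25 and 4.32 on control replicates 1 to 4 and 4.93, 4.34, 4.73 and 4.44 on Irf2_AhcKO replicates 1 to 4, a difference of 0.29 (limma adjusted p = 0.475, SE 0.15) that was 0.17 without Irf2_AhcKO replicate 1. Adh5, the glutathione-dependent formaldehyde dehydrogenase, stood at -0.13 (limma adjusted p = 0.811, SE 0.21), and Adh4 at 0.11 (limma adjusted p = 0.942, SE 0.49) with opposite signs on the slides (0.93 and -0.71). With normexp these were -0.014 and 0.05.

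None of the 4 carbonyl reductases was called, and none had an unadjusted limma p below 0.05. Cbr1, a reductase of prostaglandins and of quinones, read 4.77, 4.81, 4.46 and 4.46 on control replicates 1 to 4 and 4.49, 4.76, 4.34 and 4.31 on Irf2_AhcKO replicates 1 to 4, with a difference of -0.15 (limma adjusted p = 0.49, SE 0.08). Its neighbour Cbr3 had -0.47 (limma adjusted p = 0.639, SE 0.39), which was -0.05 without control replicate 1, -0.24 without Irf2_AhcKO replicate 1 and -0.19 with normexp. Cbr4, of mitochondrial fatty acid synthesis, stood at 0.02 (95% interval -0.15 to 0.19). Cbr2 was at 0.62 (limma adjusted p = 0.628, SE 0.51) with 2 arrays of each group well above background, opposite signs on the slides and 0.12 with normexp. It was 0.11 without control replicate 3 and 0.26 without Irf2_AhcKO replicate 4.

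Markers of the cells that a sort could carry over were read on the same arrays. Whether the measured enzymes are more abundant in mature enterocytes than in stem cells was not tested. All 18 enterocyte markers were measured and none was called (9 had an unadjusted limma p below 0.05, 8 of them lower), with a median difference of -0.25. Their summed signal, in multiples of the array's 75th percentile, was 118 to 1500 in controls and 88.6 to 108 in Irf2_AhcKO. Without Sis, the sucrase-isomaltase that was very high on control replicate 4 only, the sum was 118 to 139 and 88.5 to 108. This sum was lower in all Irf2_AhcKO arrays, but most of it came from the Fabp2 probe. Fabp2 read 6.37 to 6.71 in controls and 5.92 to 6.28 in Irf2_AhcKO. Without Sis, the median difference of the markers was -0.15. The mean log2 signal of these 17 markers was 0.18 to 0.51 in controls and -0.08 to 0.19 in Irf2_AhcKO, with overlap. The lipid-handling genes Fabp2 (-0.50), Rbp2 (-0.88) and Fabp1 (-0.59) and the brush border phosphatase Alpi (-0.79) did not overlap between groups, all lower in Irf2_AhcKO. The aminopeptidase Anpep did not overlap either, with Irf2_AhcKO higher by 0.33. None of these passed the adjusted threshold. The part of enterocyte RNA in the Ces2 and Akr1c values was not tested.

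**Figure D4:**
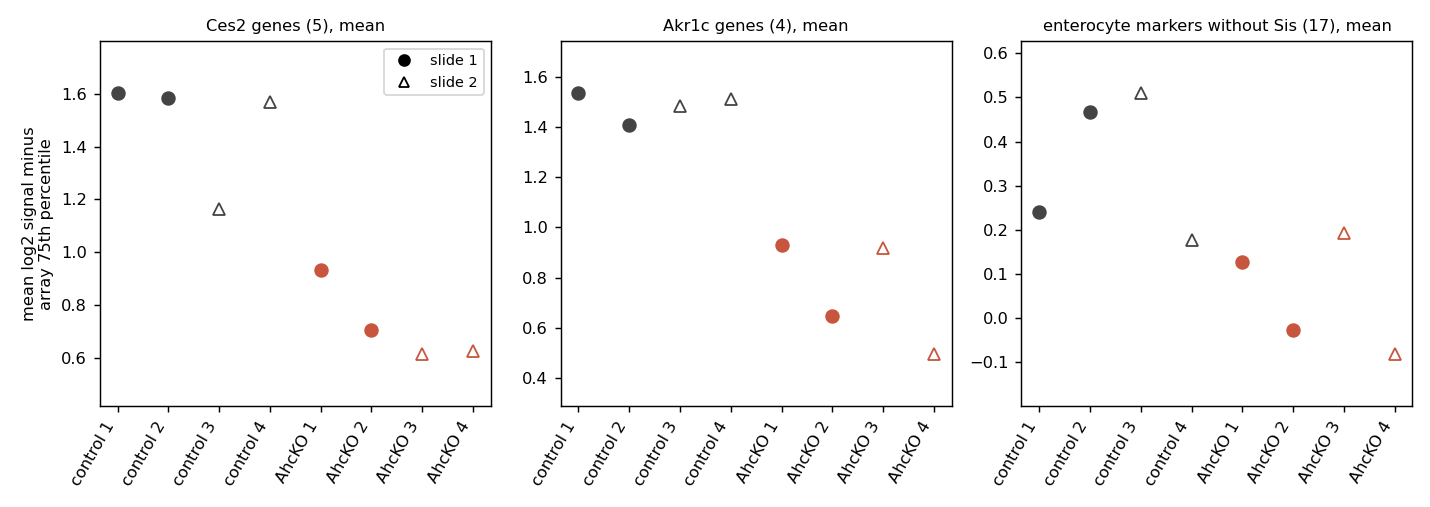
Mean log2 signal after subtracting each array's 75th percentile (y axis) of 5 Ces2 genes, 4 Akr1c genes and 17 enterocyte markers without Sis on each array (x axis), with slide 1 as filled circles and slide 2 as open triangles. Ces2 means are 1.16 to 1.60 in controls and 0.62 to 0.93 in Irf2_AhcKO, Akr1c means 1.41 to 1.53 and 0.50 to 0.93, and the marker means overlap.

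No marker of the other cell types was called. Median differences were -0.15 over 9 measured stem cell markers, -0.17 over 6 goblet, 0.09 over 4 Paneth, 0.30 over 6 enteroendocrine, 0.55 over 6 tuft, 0.03 over 12 leukocyte and -0.25 over 3 mesenchymal markers. Unadjusted limma p was below 0.05 with a negative difference for 2 stem cell markers and 1 goblet marker. It was below 0.05 with a positive difference for 1 Paneth, 2 enteroendocrine, 2 tuft and 3 leukocyte markers. In 3 markers of these cell types the groups did not overlap, each with Irf2_AhcKO higher, beside 3.85% of all features. The enteroendocrine granule gene Chga stood at 0.72 (limma adjusted p = 0.25, SE 0.18), the tuft cell channel Trpm5 at 0.75 (limma adjusted p = 0.312, SE 0.22), and the B cell receptor chain Cd79b at 1.33 (limma adjusted p = 0.189, SE 0.28). Cd79b was well above background on 2 control and 4 Irf2_AhcKO arrays. The part of these cell types in the enzyme values was not tested. The summed leukocyte signal was 107 to 250 in controls and 106 to 263 in Irf2_AhcKO, most of it from the Itgam probe, and of the defining leukocyte markers Cd3g and Cd8a were not measured.

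Other enzymes and regulators around these families were described from 4 lists. Of 21 measured esterases and related hydrolases of other families, epoxide hydrolases included, none was called (8 had an unadjusted limma p below 0.05, 7 of them lower), with a median of -0.19. The butyrylcholinesterase Bche stood at -0.49 (SE 0.09), the valacyclovir hydrolase Bphl at -0.45 (SE 0.10) and the epoxide hydrolase Ephx1 at -0.41 (SE 0.11). Ephx1 is also in the list of NRF2 targets and is counted among the lower genes of both lists. Of 23 other measured oxidoreductases, mostly of the short-chain family, 17 had negative differences (6 had an unadjusted limma p below 0.05, 5 of them lower). The 1 called gene, the xanthine dehydrogenase Xdh, is not of that family and rose by 1.98 (SE 0.21, limma adjusted p = 0.0405). The reductases Dhrs1 (-0.58, SE 0.08) and Dcxr (-0.45, SE 0.10) were not called, and the list's median was -0.09.

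Of 15 measured NRF2 regulators and targets none was called (4 had an unadjusted limma p below 0.05, all lower), with a median of -0.01. The glutathione transferase Gsta2 stood at -1.73 (SE 0.31). The probe of its relative Gsta4 was well above background on 4 control arrays and 0 Irf2_AhcKO arrays, so its level in Irf2_AhcKO has only an upper bound, and no fold is given. Gsta4 is among the 4 genes counted above. It was kept through its control arrays alone, so the filter favoured its lower direction. Of 10 nuclear receptors and partners of xenobiotic metabolism none was called (1 had an unadjusted limma p below 0.05), with a median of -0.08. The fatty acid receptor Ppara stood at -0.40 (SE 0.11), Nr1i3 (CAR) at -0.42 and the bile acid receptor Nr1h4 at 0.56.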

How the data were processed

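Total RNA of 8 samples was amplified (Ovation Pico WTA) and given Cy3 label, per the labels' protocols. The deposited spot intensity came, per the file headers, from Agilent Feature Extraction 11.5.1.1, which subtracts background and removes spatial trends. The authors' deposited series table held the same intensity times 1 constant per array, on a linear scale, without centring; the choice of that constant stays unknown. Its columns had medians of 207 to 246. Probes were named by accession through RefSeq (GRCm38.p6): 28331 of 55681 probes had 1 symbol, none had several and 27350 had none. The grid was annotated on mm9, so no probe coordinates are printed.

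Intensities were put on a log2 scale, minus each array's 75th percentile, repeat spots were averaged without flagged outliers, probes well above background on at least 4 of 8 arrays were kept, and the brightest kept probe stood for a gene. The 2 groups entered limma 3.58.1 under R 4.3.3 (lmFit and eBayes, two-sided, slide as a term, Benjamini-Hochberg over 25404 features). The fit was also run on values simulated from the fitted model itself, which checks the code and not how well the model suits these arrays. Intervals are 95%.

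Arrays of the same number lay on the same slide and shared deviations once group means were removed (r over genes, 0.46 to 0.53 for the 4 numbers). With slide means removed as well, r was 0.05 and 0.21. The main fit has the slide as a term and does not pair the arrays. The replicate number enters as a block in 1 alternative only. The enzymes and lists were chosen with earlier results of these data known. Named enzymes are those called, those without overlap and the 6 of smallest p per family, with neighbours and relatives; Ces2 promoters, Sis, Itgam and the members given beyond this were chosen after their values were seen. Of other lists the text names those called and up to 3 by smallest p, and of the markers those without overlap between groups, with Lgr5 and Ascl2. RefSeq proteins were not used here.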

Additional observations from a re-analysis of the deposited data

Results flagged for a closer look

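Among 26 named enzymes in 2 groups of 4 arrays each, 5 of 52 sets had 1 array far from the other 3, where chance alone flags about 1 in 20 sets. Akr1c14 read -2.92 on Irf2_AhcKO replicate 4 and -2.36 to -2.27 on the other 3. Aldh1a7 read -5.84 on Irf2_AhcKO replicate 2, where it was not well above background, and -3.67 to -3.39 on the others. Adh6a read -0.47 on Irf2_AhcKO replicate 2 against 0.38 to 0.56. Adh4 read -2.59 on Irf2_AhcKO replicate 1 against -3.99 to -3.97. Ces2a read 1.03 on control replicate 3 against 1.51 to 1.59.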

How the results depend on the processing

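In 21 alternatives, the 26 named enzymes gave 543 values, of which 515 kept their direction and their side of limma's threshold, 12 changed sign, 12 lost a call (all Akr1c14) and 4 gained one (Ces2c in 2, Ces2a and Ces2g in 1 each). The authors' table, the other filters, the fit without a slide term and the fits with a block left the differences themselves unchanged. Values kept under these settings therefore say nothing about the direction. The count of called features was 25 and became 133 with normexp (offset 50), 46 with features well above background on all 8 arrays, 44 with the slide as a random block, 7 without a filter, and 0 with the replicate block and on slide 1 or slide 2 alone, where 3293, 2539 and 1337 had an unadjusted p below 0.05. Leaving out 1 array gave 0 to 25 calls. The count of called enzymes was 1 and became 4 with normexp, 2 with all 8 arrays above background, and 0 without a filter, with the replicate block, on either slide alone and whenever 1 array was left out (0 to 0). Unadjusted limma p was then below 0.05 for 22 of 61 enzymes without a filter. It was below 0.05 for 20 of 45 with the replicate block, 11 of 45 on slide 1 and 16 of 45 on slide 2. Without 1 array it was below 0.05 for 17 to 21 of 45. Without a filter and with fewer arrays, more features or fewer samples entered the test; for the other changes the cause was not tested. The replicate block changed no other call among the named enzymes. The median of the enzymes stayed between -0.24 and -0.09. Signs changed only in Cbr4 (-0.0157 with normexp, -0.0091 with the array median, -0.0289 with the mean of probes, -0.0411 on slide 2, -0.0129 to 0.0469 without 1 array), Adh4 (-0.71 on slide 2, -0.331 to 0.538 without 1 array), Adh5 (-0.326 to 0.0365 without 1 array), Cbr2 (-0.32 on slide 1) and Cbr3 (0.0184 on slide 2). The files hold no mean signal, so normexp used the median signal. The authors' table gave the values of the scanner files. Leaving out control replicates 3 and 4 together leaves slide 1 as the whole comparison. Signals near background limit Aldh1a7, Aldh4a1, Akr1b7, Cbr2, Ces5a and Adh4, which were not well above it on all arrays.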
